A study of Mus musculus with 6 samples.

Results

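The genes described here encode members of the AP-1 transcription factor family, 10 of the 38739 genes in the deposited expression table. They were chosen by a fixed list of gene symbols: *Jun*, *Junb* and *Jund* (the Jun subfamily), *Fos*, *Fosb* and *Fosl2* (the Fos subfamily), *Atf3*, *Jdp2*, *Batf* and the small Maf gene *Mafk*. The list was written with earlier results of these data known. *Batf3* and the small Maf gene *Mafg* are also in the table but not on that list, and are counted with the relatives described further on. Their RNA was measured by sequencing in neutrophils from the peritoneum of mice that lack cGAS, the cytosolic sensor of DNA, with 3 samples kept in medium (untreated) and 3 samples given lipopolysaccharide (LPS) of *E. coli* for 2 h. The labels give 500 ng/mL of LPS, as do the methods of the study for other neutrophil experiments. The RNA sequencing section of those methods states a lower concentration. The comparison asks how cGAS-/- neutrophils respond to LPS.

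Both groups carry the cGAS deletion on a C57BL/6 background (written C57B/L6 in the labels), in all cells of the animal, and no wild-type sample stands in the table, so nothing below separates an effect of LPS from one that needs the deletion. The cells were kept in RPMI with 10% fetal bovine serum and antibiotics. They were obtained by peritoneal lavage without a described sort. The methods of the study describe an injection of thioglycolate into the peritoneum before the lavage, so untreated here means without LPS in culture. The labels do not say whether the 3 samples of a group came from separate mice. The labels give no age, and the methods of the study describe its mice as young adult males. The p values therefore measure the spread between these samples, which may be technical.

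AP-1 factors bind DNA as pairs joined through a leucine zipper. A Jun protein can pair with itself or with a Fos, ATF, JDP or BATF partner, Fos proteins need a Jun partner, and the pairs bind a short palindromic element in the promoters and enhancers of cytokine, chemokine and protease genes. In myeloid cells several of the genes are immediate early genes, whose transcription starts within minutes of a signal from a Toll-like receptor through the MAP kinases and then declines. BATF, JDP2 and the small Maf proteins have no transactivation domain of the Fos or Jun kind, and their pairs can repress AP-1 sites or bind them together with other factors.

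Values are TPM, transcript abundances scaled for length and library total. Each is the average of a gene's transcripts, with 1 divisor for each sample, and is called scaled TPM below. They are on a scale per length, but the averaging lowers a gene with many listed transcripts. The number of transcripts the authors averaged over is not given, so the order of levels between genes is not settled. Comparisons between genes are also given with each value multiplied by the gene's number of transcripts in GENCODE M39. That number need not be the one the authors used. The deposited values point to a divisor of 3, or a multiple of it, for *Fosl2* and *Atf3*, which have 5 transcripts each in M39. For *Fosb* they point to 7, as in M39. The number of reads per sample is not known, and the 3 samples of a group are the only measure of precision. Over 23049 genes with a value above 0, LPS was compared with untreated by limma on log2(value + 1), and a gene is called higher or lower at an unadjusted p under 0.01 with a log2 fold change beyond 2, the limits of the study.

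Facts about the samples touch all members. Summed values were 603599 to 713384 in untreated and 404675 to 465904 in LPS samples, and protein-coding genes held 21.6% to 28.97% of the sum in untreated samples against 50.6% to 59.99% after LPS. Pseudogenes held most of the rest. *Cgas* itself was at 0.180 to 0.307 in untreated and 0.0286 to 0.184 in LPS samples, near 0 in all 6. Neutrophil markers were abundant (summed value 9967 to 28783 in untreated and 16225 to 54838 in LPS samples, 17 of 20 markers measured above 0), with *S100a8* at 2086 or more in every sample, while *Elane* was listed at 0 throughout and *Mpo* did not exceed 0.138. B cell markers were also present (8 of 10 measured, summed value 282 to 1103 and 265 to 807), lowest in replicate 2 of both groups, where the neutrophil sum was highest.

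The promoters of the members were read from RefSeq (build GRCm38.p6), as the 250 bases before each start site, and all 10 members had at least 1 window. No member held the classical AP-1 element TGACTCA (searched on both strands, so also as TGAGTCA), which 4.46% of all 32544 mouse windows held, and no member held the full cyclic AMP response element TGACGTCA (1.55% of all windows). The shorter element TGACG, which lies within the second of these and is searched on both strands, stood in 7 of the 10 members against 17.8% of all windows. It was chosen after the windows had been read, so that count is a description. The count is per gene and the share per window, and *Jdp2* had 3 windows. Windows of all 7 are shown: 4 are of members whose groups did not overlap (described next), and those of *Fos*, *Fosb* and *Atf3* are of members whose groups did. A link between the element and the response to LPS was not tested. The match is in capitals, and on the opposite strand it reads CGTCA.
Junb: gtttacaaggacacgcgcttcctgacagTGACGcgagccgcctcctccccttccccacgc
Batf: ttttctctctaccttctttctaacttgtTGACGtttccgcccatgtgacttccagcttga
Jdp2: ctccgtccccctcTGACGtgtggagctggc
Mafk: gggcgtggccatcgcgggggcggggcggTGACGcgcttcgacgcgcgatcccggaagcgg
Fos: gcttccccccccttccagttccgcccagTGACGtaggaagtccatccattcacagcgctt
Fosb: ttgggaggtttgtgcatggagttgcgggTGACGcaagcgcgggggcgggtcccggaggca
Atf3: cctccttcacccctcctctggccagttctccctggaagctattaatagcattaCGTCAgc

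Counted from the start site, the match lay at -106 to -102 in *Junb* (window chr8:84978823-84978882, minus strand) and at -98 to -94 in *Batf* (chr12:85686594-85686653, plus strand). That in *Atf3* was the nearest to a start, at -7 to -3 (chr1:191183334-191183393, minus strand). *Mafk* held it at -41 to -37 (chr5:139791467-139791526, plus strand), *Fosb* at -60 to -56 (chr7:19310074-19310133, minus strand) and *Fos* at -66 to -62 (chr12:85473796-85473855, plus strand), with a further match upstream. The *Jdp2* match lay at -114 to -110 of its second start site (chr12:85599289-85599318, plus strand). *Jun*, *Jund* and *Fosl2* had no match in these letters. Of the other motifs searched, TATAAA stood in *Fos* alone (12.3% of all windows), CCAAT in *Jun* and *Junb* (33.8%), GGGCGG in 8 members (33%), an NF-kB site in *Fos*, *Fosb* and *Fosl2* (3.92%), and a CArG box, the element bound by serum response factor, in none (1.48%).

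In outline, 2 of the 10 members were called higher after LPS, *Junb* and *Batf*, where 1.69% of all tested genes and 4.91% of the 6004 protein-coding genes with a mean value of at least 1 were called higher. None was called lower, by limma, where 1.31% of all tested genes and 0.75% of those protein-coding genes were. At an unadjusted p under 0.05 there were 4 members higher and 0 lower, where 10.3% and 6.66% of all tested genes were. *Junb* alone passed an adjusted p under 0.05 (0.894% of all tested genes did so in that direction). In 4 members, *Junb*, *Batf*, *Jdp2* and *Mafk*, the lowest LPS sample exceeded the highest untreated sample, which held for 13.1% of all tested genes, and no member had all LPS samples below (9.75%). The median log2 fold change of the members was 0.55, beside 0.01 over all tested genes and 0.37 over the protein-coding genes with a mean value of at least 1.

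**Figure D1:**
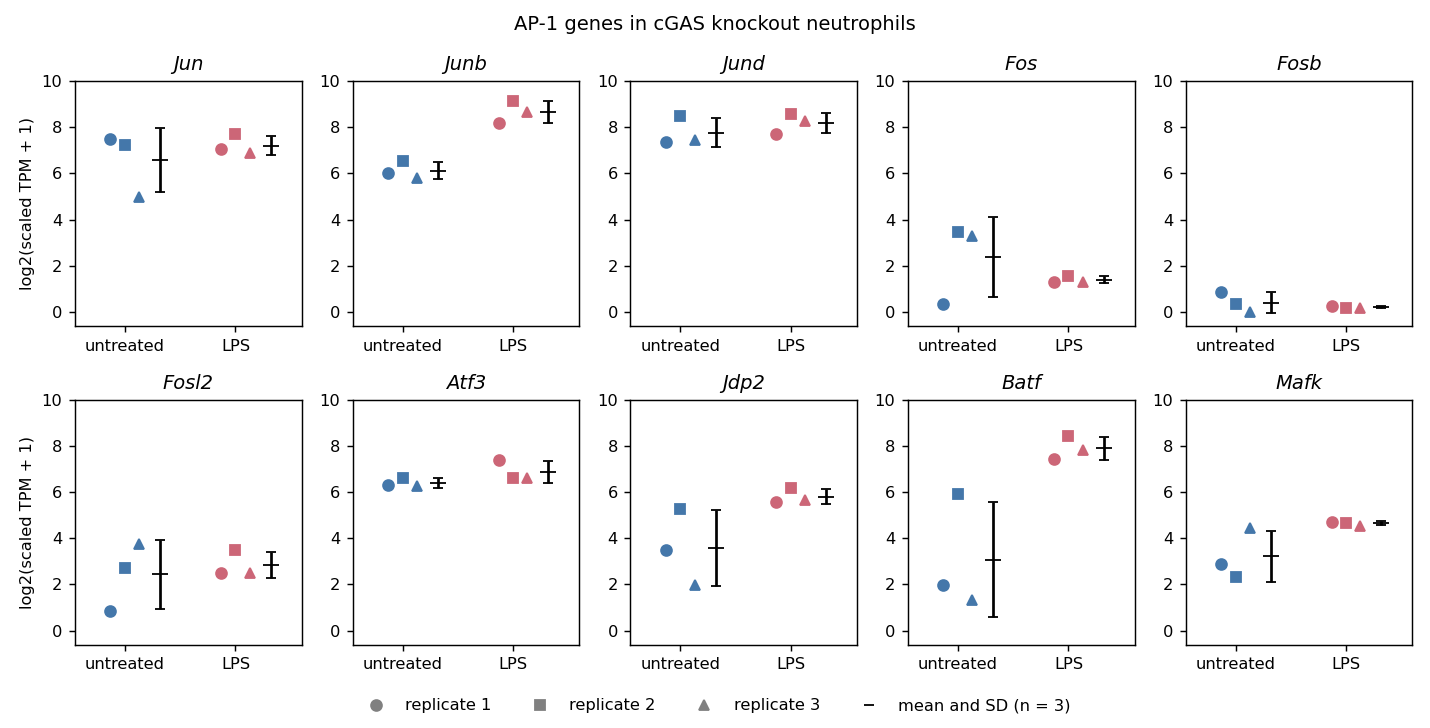
Values of the 10 AP-1 genes in each sample, as log2(scaled TPM + 1) on 1 shared axis range, with untreated samples in blue and LPS samples in red. Symbols mark the replicate number and bars the mean ± SD of 3 samples. *Junb*, *Batf*, *Jdp2* and *Mafk* have every LPS sample above every untreated sample, whereas the other members overlap between groups.

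Of the Jun subfamily, *Junb* encodes JunB, a Jun protein that is a weaker activator than c-Jun at many sites. Its scaled TPM was 64.2, 92.6 and 55.1 in untreated samples 1, 2 and 3 and 292, 553 and 409 in LPS samples 1, 2 and 3. Every LPS sample lay above every untreated one, and sample 2 was the highest in both groups. The mean rose from 70.6 ± 19.5 to 418 ± 131 (SD, n = 3 each), a ratio of 5.92. *Junb* was called higher, with a log2 fold change of 2.53 (SE 0.37, adjusted p = 0.037 by limma). The call held in all 16 alternative fits, with log2 fold changes from 2.05 to 3.17 and adjusted p from 0.0036 to 0.17. Because these are bulk samples, more RNA per neutrophil and a larger share of cells that express the gene cannot be told apart, here and for the other members.

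*Jun*, which encodes c-Jun, the partner that gives AP-1 its strongest activators, had values of 180, 150 and 30.8 in untreated and 132, 205 and 116 in LPS samples. Untreated sample 3 stood well below the other untreated samples, and the groups overlapped. The log2 fold change was 0.63 (95% interval -1.12 to 2.38, adjusted p = 0.64 by limma), and without untreated sample 3 it changed sign to -0.16. *Jund* encodes JunD, the Jun protein that resting cells express steadily, and its values were 164, 360 and 172 in untreated and 209, 377 and 310 in LPS samples. Sample 2 was the highest in both groups and the groups overlapped. The log2 fold change of *Jund* was 0.42 (95% interval -0.63 to 1.47, adjusted p = 0.61), and turned to -0.07 when each sample was scaled to its protein-coding sum.

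Read against one another within a sample, the Jun genes give shares that do not depend on the scaling of the sample. *Junb* made up 15.7%, 15.4% and 21.3% of the summed Jun subfamily values in the untreated samples and 46.1%, 48.7% and 49.0% in the LPS samples. Its share was thus higher in every LPS sample than in any untreated one, with an exact two-sided permutation p of 0.1, the smallest that 3 samples against 3 can give. The share of *Jund* moved the other way, from 40.2%, 59.8% and 66.8% to 33.0%, 33.2% and 37.1%, again without overlap (exact permutation p = 0.1). That of *Jun* overlapped, at 44.0%, 24.8% and 11.9% against 20.9%, 18.1% and 13.9% (exact permutation p = 0.5). As a ratio, *Junb* to *Jund* was 0.391, 0.257 and 0.3196 in untreated and 1.395, 1.47 and 1.32 in LPS samples, with the groups apart. Multiplied by transcript numbers (3 for *Junb*, 1 for *Jund*), the ratios were 1.17, 0.771 and 0.959 in untreated and 4.19, 4.402 and 3.96 in LPS samples, so which of the pair was higher in the untreated samples is not settled, while the groups stayed apart. The share of *Junb* on that scale was 26.9% to 41.4% in untreated and 64.9% to 69.3% in LPS samples. The summed value of the Jun subfamily itself went from 408, 602 and 258 to 634, 1136 and 835 (exact permutation p = 0.1). Unlike the shares, this sum depends on the scaling of each sample. Whether its groups stay apart under another scaling, such as to the protein-coding sum, was not tested.

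**Figure D2:**
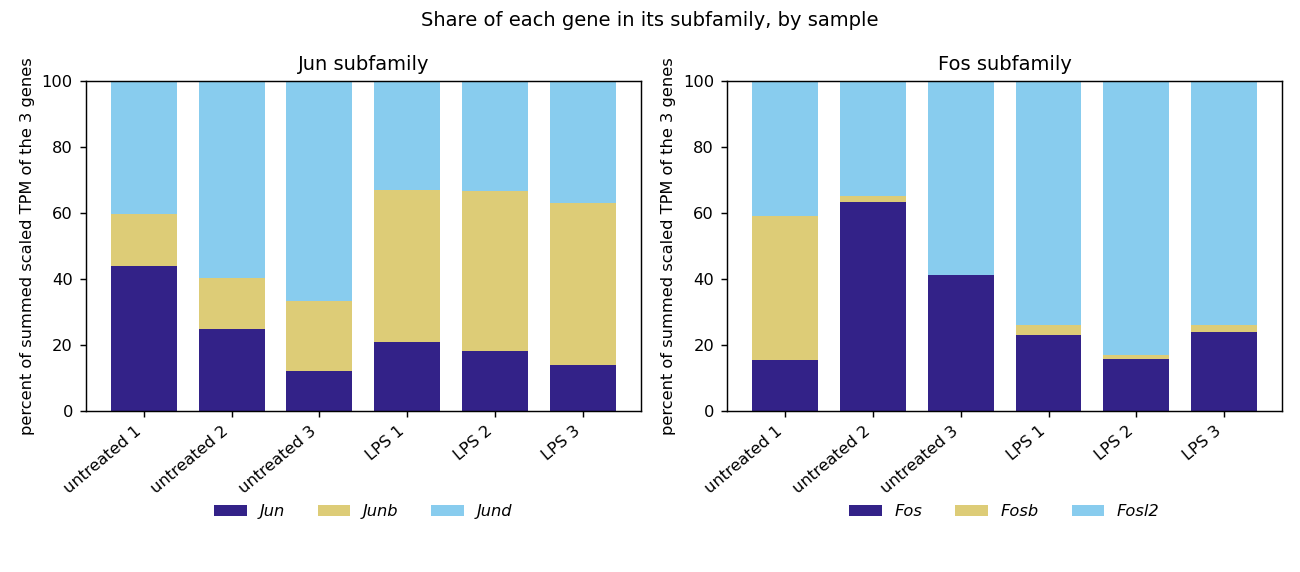
Share of each gene in the summed scaled TPM of its subfamily (percent, stacked to 100) in each of the 6 samples, for the Jun subfamily (left) and the Fos subfamily (right). The *Junb* band covers 15.4% to 21.3% of the Jun bars in untreated samples and 46.1% to 49.0% in LPS samples, and the *Fosl2* band covers 34.8% to 58.8% and 73.9% to 83.2% of the Fos bars.

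The Fos subfamily was expressed at far lower values and no member of it was called. *Fos* encodes c-Fos, the best known immediate early AP-1 protein, and had values of 0.292, 10.1 and 8.70 in untreated and 1.46, 1.97 and 1.496 in LPS samples. Untreated sample 1 was the lowest of all 6 and the other untreated samples the highest, so the LPS samples lay inside the untreated range. The log2 fold change was -0.98 (95% interval -3.07 to 1.12, adjusted p = 0.56 by limma), an interval that reaches from a large decrease to a moderate increase. Without untreated sample 1 it was -1.98 (SE 0.29, adjusted p = 0.057), just inside the fold limit of a call, and without untreated sample 2 it was -0.43 and without untreated sample 3 -0.53. *Fos* is the member with the widest gap within a group apart from *Batf* (leaving out *Fosb*, which has a value of 0): the highest untreated value was 34.7 times the lowest, against 1.35 times among LPS samples.

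*Fosl2* encodes Fra-2, a Fos-related protein that lacks the strong activation domain of c-Fos. It was measured at 0.778, 5.57 and 12.4 in untreated and 4.70, 10.4 and 4.64 in LPS samples, with the groups overlapping (log2 fold change 0.41, 95% interval -1.51 to 2.33, adjusted p = 0.79 by limma). Without untreated sample 1 the log2 fold change was -0.39. *Fosb*, which encodes a close relative of c-Fos with a shorter splice form known from neurons, was near 0 throughout, at 0.838, 0.290 and 0 in untreated and 0.190, 0.132 and 0.139 in LPS samples. Its log2 fold change of -0.21 (95% interval -0.76 to 0.35, adjusted p = 0.63) turned positive in the fit by voom (0.40) and without untreated sample 1 (0.02). At values this low and with the depth unknown, no statement on a change of *Fosb* can be made.

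Within the Fos subfamily, the share of *Fosl2* was 40.8%, 34.8% and 58.8% in untreated and 74.0%, 83.2% and 73.9% in LPS samples, without overlap (exact permutation p = 0.1, the smallest possible). That of *Fos* was 15.3%, 63.4% and 41.2% against 23.0%, 15.8% and 23.8% (exact permutation p = 0.4). In untreated sample 1 the shares rest on a subfamily sum of only 1.91, beside 16.0 and 21.1 in the other untreated samples. On the multiplied scale the share of *Fosl2* was 35.6% to 64.0% and 76.6% to 85.5%, also without overlap. The Jun subfamily exceeded the Fos subfamily in every sample, by a ratio of 214, 37.7 and 12.3 in untreated and 99.8, 91.0 and 133 in LPS samples (4.13 or more in every sample after multiplication), with no difference between groups that the test could separate from the spread (exact permutation p = 0.9).

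*Atf3* encodes an ATF protein that is induced by stress and by Toll-like receptors and is known to restrain cytokine genes in macrophages. Its values were 77.3, 97.4 and 75.1 in untreated and 167, 96.2 and 95.9 in LPS samples. LPS sample 1 was the highest of all, whereas the other LPS samples lay just under untreated sample 2. The log2 fold change was 0.48 (95% interval -0.34 to 1.29, adjusted p = 0.55 by limma), and it was -0.01 when samples were scaled to the protein-coding sum.

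*Jdp2* encodes the Jun dimerization protein, which pairs with Jun proteins and represses AP-1 sites. Its values were 10.2, 37.4 and 2.91 in untreated and 46.3, 70.4 and 49.6 in LPS samples. All LPS samples lay above the untreated samples, although untreated sample 2 came near to them and the untreated values spanned 12.8 times from lowest to highest. The mean went from 16.8 ± 18.2 to 55.4 ± 13.1 (SD, n = 3 each), with a log2 fold change of 2.22 (95% interval 0.21 to 4.23, adjusted p = 0.24 by limma), and *Jdp2* was not called. It was called in 2 of the 16 alternatives, with voom (2.92) and without untreated sample 2 (3.06).

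*Batf* encodes a small AP-1 protein that pairs with Jun proteins and, together with IRF4 or IRF8, binds composite elements in lymphocytes and dendritic cells. Its values were 2.99, 59.9 and 1.47 in untreated and 173, 343 and 227 in LPS samples. Every LPS sample lay above every untreated sample, and untreated sample 2 stood 26.9 times above the mean of the other untreated samples. The mean went from 21.5 ± 33.3 to 247 ± 87.0 (SD, n = 3 each), a ratio of 11.5. *Batf* had the largest change among the members and was called higher, at a log2 fold change of 4.82 (SE 1.22, 95% interval 1.86 to 7.79 by limma), but its adjusted p was 0.11. Without untreated sample 2 the log2 fold change was 6.25 with an SE of 0.42. The call was lost when any other single sample was left out (log2 fold change 3.94 to 5.05) and in the fit without a mean-variance trend.

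In the median sample *Batf* moved from the 78.7 percentile of protein-coding genes in the untreated group to the 99.2 percentile in the LPS group. The ratio of *Batf* to *Jund* was 0.0182, 0.166 and 0.00853 in untreated samples and 0.824, 0.909 and 0.733 in LPS samples, without overlap (exact permutation p = 0.1, the smallest possible). Multiplied by transcript numbers it was 0.0171 to 0.333 and 1.47 to 1.82, so that whether *Batf* or *Jund* was the higher after LPS is not settled. Untreated sample 2, which had the highest *Batf*, *Jdp2*, *Junb* and *Jund* of its group, also had the highest neutrophil marker sum (28783, beside 9967 and 10067) and the lowest B cell marker sum (282, beside 1029 and 1103). LPS sample 2 was likewise highest for these 4 genes, with neutrophil marker sums of 54838 beside 16225 and 18383. The part of cell composition in these values was not tested.

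*Mafk* encodes a small Maf protein, which pairs with itself as a repressor or with NRF factors at antioxidant genes. Its values were 6.41, 4.01 and 21.0 in untreated and 25.4, 24.5 and 22.2 in LPS samples. In the values as deposited the groups did not overlap, with LPS sample 3 only just above untreated sample 3. The LPS samples spanned no more than 1.14 times. The log2 fold change was 1.42 (95% interval 0.01 to 2.83, adjusted p = 0.29 by limma) and the gene was not called, save with voom (2.12) and without untreated sample 3 (2.04). With samples scaled to the protein-coding sum the log2 fold change of *Mafk* was 0.96 (unadjusted p = 0.20 by limma).

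**Figure D3:**
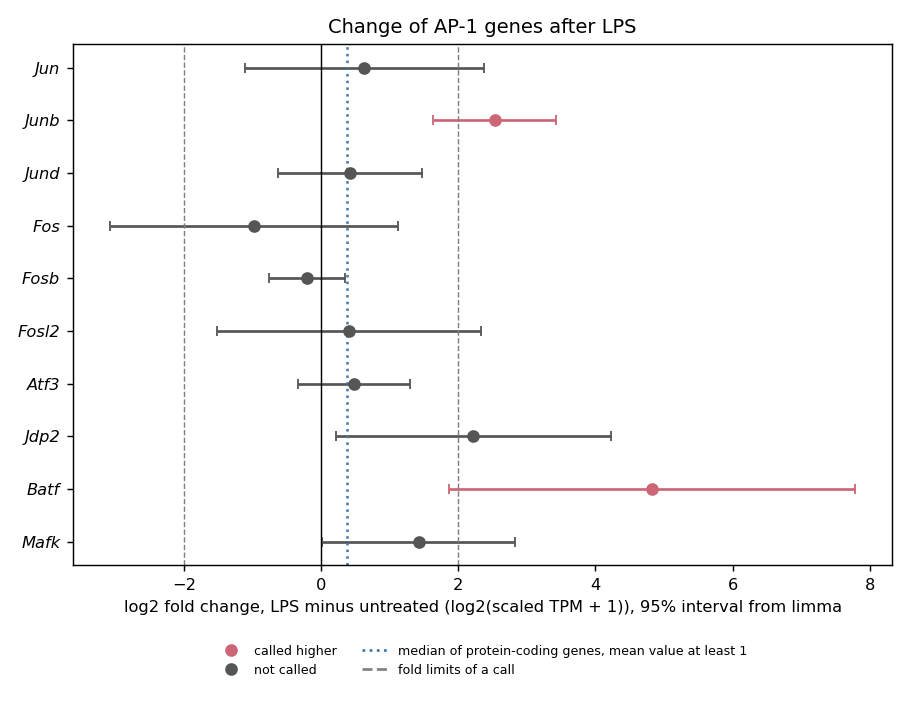
Log2 fold change of each AP-1 gene (LPS minus untreated, points) with its 95% interval from limma (bars), on values of log2(scaled TPM + 1), n = 3 samples each. *Junb* (2.53) and *Batf* (4.82) are called higher, the dashed lines mark the fold limits of a call, and the dotted line marks the median of 0.37 over protein-coding genes with a mean value of at least 1.

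By the median sample, scaled TPM in the untreated group was 172 for *Jund*, 150 for *Jun*, 77.3 for *Atf3* and 64.2 for *Junb*, and 10.2 or less for *Jdp2*, *Fos*, *Mafk*, *Fosl2*, *Batf* and *Fosb*. Multiplied by transcript numbers the first 4 became 172, 299, 387 and 193 and *Jdp2*, with 13 transcripts, became 133, so the order among these genes depends on the averaging. On that scale *Atf3* and *Fosl2* are multiplied by 5, whereas their deposited values point to a divisor of 3 or a multiple of it, so their place in the order is uncertain. After LPS the medians were 409 for *Junb*, 310 for *Jund*, 227 for *Batf*, 132 for *Jun*, 96.2 for *Atf3*, 49.6 for *Jdp2* and 24.5 for *Mafk*, and became 1226, 310, 454, 265, 481, 644 and 172. *Junb* had the highest median of the members after LPS on both scales, and *Fosl2*, *Fos* and *Fosb* the lowest, at 4.70, 1.496 and 0.139 as deposited and 23.5, 5.98 and 0.971 after multiplication.

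The untreated samples varied more than the LPS samples. On the log2 scale the SD within a group had a median over the members of 1.24 without and 0.43 with LPS, and the untreated SD was the larger in 8 of 10 members. That was also so for genes at large: among the 9403 genes with a mean value of at least 1 the medians were 0.79 and 0.32, and 79.5% had the larger SD in the untreated group. Untreated sample 2 was the highest of its group for 6 members and untreated sample 3 the lowest for 6, while LPS sample 2 was the highest of its group for 7.

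The genomic setting limits how some members can be read. On GRCm39 (GENCODE M39), *Fos* (85520658 to 85524047), *Jdp2* (85645015 to 85690570) and *Batf* (85733423 to 85755861) lie side by side on the plus strand of chromosome 12, and of these neighbours *Batf* was called while the groups of *Fos* overlapped. *Junb* (85701113 to 85705359, minus strand) and *Jund* (71151599 to 71153265, plus strand) lie on chromosome 8, *Jun* (94937271 to 94940459, minus strand) on chromosome 4 and *Atf3* (190902493 to 190950241, minus strand) on chromosome 1. *Fosl2* (32292707 to 32315186) and *Mafk* (139776804 to 139788408) lie on the plus strand of chromosome 5, and *Fosb* (19036621 to 19043976) on the minus strand of chromosome 7. Exons of 6 members (*Jun*, *Junb*, *Jund*, *Fosl2*, *Jdp2* and *Mafk*) overlap a gene on the opposite strand. The library kit kept the strand, but whether the quantification used it is not given in the sources used here, so reads in these stretches cannot be told apart. The gene opposite *Fosl2* and 1 of those opposite *Junb* have no value in the table. Of the others, *Prdx2*, which overlaps *Junb*, was at 0.273 to 2.43, and the highest value was 10.1, for *Gm47863* beside *Jdp2* in untreated sample 2.

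The wider basic leucine zipper genes (CREB, ATF, C/EBP, NRF, BACH, PAR and large Maf genes, with *Batf3* and the small Maf gene *Mafg*) were counted as relatives. Of 40 listed, 24 were tested, 3 were called higher (1 when samples were scaled to the protein-coding sum) and none lower (6 genes higher and 1 lower at an unadjusted p under 0.05 by limma), with a median log2 fold change of 0.19. Over all tested genes 1.69% were called higher and 1.31% lower (0.959% and 2.24% with that scaling), and 10.3% and 6.66% passed the unadjusted limit. Among protein-coding genes with a mean value of at least 1, 4.91% were called higher and 0.75% lower. *Nfil3*, a repressor of the PAR group known from circadian and lymphoid regulation, was at 2.43, 3.19 and 1.44 in untreated and 23.4, 37.4 and 25.5 in LPS samples, and was called higher (log2 fold change 3.16, SE 0.35, adjusted p = 0.021). *Nfe2l2*, which encodes NRF2, the activator of antioxidant genes, was called at 2.46 (SE 0.52, adjusted p = 0.079). *Mafg*, a small Maf gene like *Mafk* and a partner of NRF2, was called at 2.12 (SE 0.42, adjusted p = 0.069), from 17.2, 33.2 and 48.3 to 127, 151 and 129. These 3 genes had every LPS sample above every untreated sample. The most negative log2 fold change was that of *Creb3l1* (-0.92, adjusted p = 0.44), which was not called.

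The MAP kinase route that feeds AP-1 had 30 of 53 listed genes tested, with 15 above and 15 below a log2 fold change of 0 and a median of -0.02. Of these 2 were called higher and none lower, with 0 of each when samples were scaled to the protein-coding sum (in the reported fit 4 higher and 3 lower at an unadjusted p under 0.05 by limma). Those 2 of 30 are near the 4.91% of protein-coding genes with a mean value of at least 1 that were called higher (1.69% of all tested genes). *Map3k7* encodes TAK1, the kinase that relays Toll-like receptor signals to the JNK, p38 and NF-kB routes. Its scaled TPM was 0.249, 1.19 and 1.07 in untreated and 7.54, 7.55 and 7.45 in LPS samples (log2 fold change 2.25, SE 0.34, adjusted p = 0.039). *Mapkapk2* encodes MK2, a kinase downstream of p38 that stabilizes cytokine mRNA, and went from 170, 199 and 112 to 610, 879 and 640 (2.16, SE 0.34, adjusted p = 0.043). Neither gene overlapped between groups. *Cop1*, a ubiquitin ligase that marks c-Jun for degradation, had the most negative value of the list: it was at 24.1, 19.2 and 24.8 in untreated and 7.25, 9.55 and 8.13 in LPS samples (-1.35, SE 0.28, adjusted p = 0.076), with every LPS sample below, but inside the fold limit and so not called.

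Genes that textbooks give as AP-1 targets included more called genes. Of 39 listed, 32 were tested, 9 were called higher and 1 lower (4 and 2 when samples were scaled to the protein-coding sum), 4 passed an adjusted p under 0.05 in the higher direction, and the median log2 fold change was 0.94. Of the protein-coding genes with a mean value of at least 1, 4.91% were called higher and 0.75% lower, and 0.894% of all tested genes passed the adjusted limit in the higher direction. The groups did not overlap in 15 of the 32 with LPS above (13.1% of all tested genes) and in 2 with LPS below (9.75%). The list holds many inflammatory genes that other factors such as NF-kB also regulate, and was written with earlier results of these data known. *Icam1*, an adhesion molecule, rose from 16.3, 24.8 and 18.1 to 337, 336 and 467 (log2 fold change 4.20, SE 0.31, adjusted p = 0.0065). The neutrophil chemokine gene *Cxcl2* rose from 135, 204 and 77.7 to 2381, 1392 and 1336 (3.66, adjusted p = 0.026). *Cxcl1*, a chemokine of the same receptor, rose from 1.33, 2.57 and 2.76 to 161, 33.2 and 148 (4.90, adjusted p = 0.033). *Ptgs2*, which encodes cyclooxygenase 2, rose from 10.6, 12.1 and 1.92 to 230, 86.6 and 178 (4.33, adjusted p = 0.046). In *Cxcl1* and *Ptgs2* LPS sample 2 was the lowest LPS sample, whereas for *Junb* and *Batf* it was the highest. *Il2*, the T cell growth factor gene, had the most negative value, from 10.4, 14.1 and 11.8 to 3.24, 1.06 and 2.26 (-2.09, SE 0.37, adjusted p = 0.054), and was the gene called lower, while T cell markers summed to no more than 21.0 in any sample.

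Promoter windows were at hand for 25 of these targets, and 9 of them held the classical AP-1 element, beside 4.46% of all windows. Since such genes are known as targets partly for this element, the count is a description. Of the 9, *Mmp13* and *Il6* were called higher and the other 7, *Plaur*, *Itgax* and *Mt2* among them, were not called. The 5 matrix metalloproteinase genes among the 9 lie close together on chromosome 9, and they are shown with *Il6* because they share the element yet differ in value. The element is in capitals, on the plus strand of GRCm38.p6 in each.
Mmp13: accccaaagtggTGACTCAtcactatcatg
Mmp12: tgacatcaacagTGAGTCAgatagaggatt
Mmp3: tggaagcaattaTGAGTCAgttttcgggtg
Mmp1a: tgttgtcaaccaTGAGTCAcatagcctctg
Mmp10: atagcacccatgTGAGTCAtgcttagtgac
Il6: cTGAGTCActtttaaagaaaaaaaagaaga

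The windows lie at chr9:7272467-7272496 for *Mmp13*, chr9:7347318-7347347 for *Mmp12*, chr9:7445764-7445793 for *Mmp3*, chr9:7464056-7464085 for *Mmp1a*, chr9:7502267-7502296 for *Mmp10* and chr5:30012864-30012893 for *Il6*. These genes were named after their values were seen. *Mmp13*, a collagenase, went from 4.47, 0.614 and 6.90 to 56.7, 16.0 and 44.0 and was called higher (log2 fold change 3.10, SE 0.75, adjusted p = 0.10). *Mmp12*, the macrophage elastase, went from 0.388, 0.498 and 1.44 to 2.68, 1.68 and 2.06 (0.86, adjusted p = 0.31) and was not called. *Mmp1a*, *Mmp3* and *Mmp10* did not exceed 0.542 in any sample. *Il6*, whose element lies at -249 to -243 from the start, went from 0.246, 0 and 0.728 to 11.6, 2.39 and 10.6 (2.61, SE 0.59, adjusted p = 0.090) and was called higher.

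The summed value of macrophage markers was 189 to 299 in untreated and 338 to 452 in LPS samples over 15 of 16 markers, 1 of which (*C1qb*) was called higher. Most of that sum was *Cd68*, at 179, 157 and 162 in untreated and 303, 381 and 230 in LPS samples. All LPS samples lay above all untreated ones in 3 of the 15 markers (13.1% of all tested genes) and below in 1, *Mrc1* (9.75%), and the other markers overlapped. The part of macrophages in the values of *Mmp12*, *Il6* and the members was not tested.

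**Figure D4:**
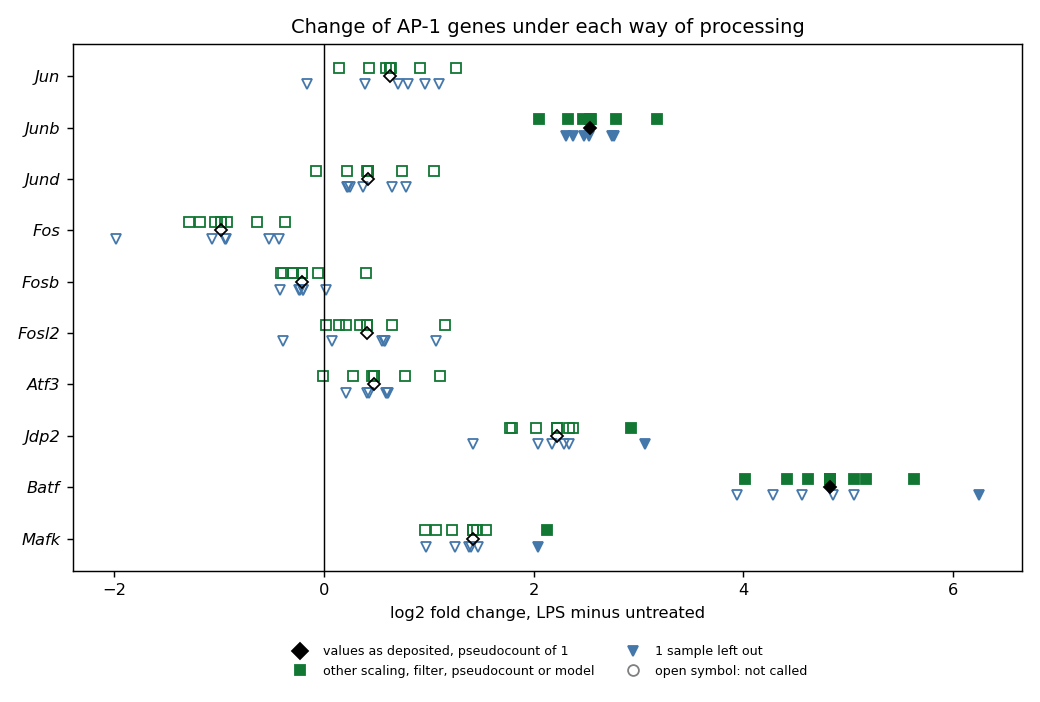
Log2 fold change of each AP-1 gene (LPS minus untreated) with the values as deposited (diamonds), under other scalings, filters, pseudocounts and models (squares) and with 1 sample left out (triangles). Filled symbols are called. *Junb* is called in every fit, from 2.05 to 3.17, *Batf* runs from 3.94 to 6.25, and *Jun*, *Jund*, *Fosb*, *Fosl2* and *Atf3* have fits on both sides of 0.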

How the data were processed

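RNA of 6 samples (3 untreated, 3 LPS, grouped by title and treatment label) was sequenced from stranded mRNA libraries. According to the methods and processing notes, the authors aligned reads with STAR to GRCm39 (the notes also name mm10), quantified them with Kallisto and normalized with edgeR. The annotation release and the versions of STAR, Kallisto and edgeR are not given in the sources used here. The deposited values are TPM averaged over transcripts and divided by 1 factor per sample (0.861 to 1.12), both read from the values. Depth is unknown and counts cannot be recovered.

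The 15690 genes at 0 throughout were left out. The other 23049 were tested on log2(value + 1) with limma 3.58.1 in R 4.3.3 (eBayes with trend, two-sided, no covariate, Benjamini-Hochberg over all genes), after a test on simulated data. Shares were compared by exact permutation. Motifs were searched in RefSeq windows, and near-identical copies with blastn 2.17.0 (95% over 150 bases): none lay outside a member's own locus. All 10 members are named, and per list up to 4 genes by adjusted p under 0.05 and then called change, plus the most negative. Members and lists were chosen with earlier results of these data known.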

Additional observations from a re-analysis of the deposited data

How the results depend on the processing

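Over the 10 members, *Junb* was called in all 16 alternatives and kept its direction, as did *Fos* (-1.98 to -0.43 with 1 sample left out), *Jdp2*, *Batf* and *Mafk*. Signs changed for *Jun* (-0.16 without untreated replicate 3, in a range of -0.16 to 1.10 with 1 sample left out), *Fosl2* (-0.39 without untreated replicate 1, -0.39 to 1.07), *Fosb* (0.40 with voom, 0.0225 without untreated replicate 1, -0.42 to 0.0225), *Jund* (-0.072) and *Atf3* (-0.010), the last pair when samples were scaled to the protein-coding sum. The number of members called higher, 2 as reported, was 1 without the mean-variance trend (1.48% of the genes in that fit), 4 with voom (6.73%) and 1 to 3 with 1 sample left out (1.18% to 2.05%). The number higher at an adjusted p under 0.05, 1 as reported, was 2 with a filter on a mean value of at least 1, where 5.92% of the genes were. It was 4 of 10 with voom, near the 38.8% of all genes there, and 0 to 2 with 1 sample left out. Over all tested genes, 389 were called higher and 301 lower as reported, 221 and 516 with scaling to the protein-coding sum, 310 and 414 with centring on the median, 129 and 168 with a pseudocount of 5, 856 and 493 with a pseudocount of 0.1, and 1552 and 177 with voom. Voom moved the median of all tested genes to 0.67 and centring on the median moved it to -0.19, so that calls there are relative to those shifts.

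With the replicate number as a block, the members called higher stayed at 2 and those at an adjusted p under 0.05 went to 0, with 16 genes in all at that limit instead of 424. Same-numbered samples deviated together only weakly (r = 0.0935, 0.199 and 0.0835), and although each sample correlated best with its own number, the numbers are not established as pairs.

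Relatives called higher, 3 as reported, were 1 with scaling to the protein-coding sum, 6 with voom and 1 to 3 with 1 sample left out. MAP kinase route genes called higher, 2 as reported, were 1 with a pseudocount of 5, 1 with centring on the median, 0 with scaling to the protein-coding sum and 1 to 2 with 1 sample left out, and 1 was called lower with a log2 limit of 1. Targets called higher, 9 as reported, were 4 with scaling to the protein-coding sum and 5 to 8 with 1 sample left out. Targets called lower, 1 as reported, were 0 with a pseudocount of 5, 2 with centring on the median, 2 with scaling to the protein-coding sum, 0 with voom and 0 to 1 with 1 sample left out. Of all tested genes, 0.560% were called higher with a pseudocount of 5, 1.34% with centring on the median, 0.959% with scaling to the protein-coding sum and 6.73% with voom. In the same order, 0.729%, 1.80%, 2.24% and 0.768% were called lower. The cause of the changes in these counts was not tested. With values multiplied by transcript numbers, chosen after seeing the data, all 6 subfamily shares kept the direction of their difference. The depth is unknown, which limits what can be said of genes near 0 such as *Fosb*.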
